A study of Mus musculus with 24 samples.

Results

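In mouse dermal fibroblasts, 410 stretches of the genome lay in lamin B1 domains after 30 cycles of sonication but in none after 12 cycles. They were chosen by the domain calls themselves. Domains had been called with EDD (enriched domain detector), which joins neighbouring bins of elevated ChIP over input signal into broad regions. From the 370 lamin B1 domains of the 30-cycle library, every base pair inside the 279 domains of the 12-cycle library was removed, which left 506 pieces, and the 410 pieces of at least 100 kb were kept. The stretches added up to 519.6 Mb, which was 54.5% of the base pairs in the 30-cycle lamin B1 domains and 20.3% of the genome without assembly gaps. The other 96 pieces held 4.50 Mb together. That the stretches were in lamin B1 domains at 30 cycles and not at 12 was what selected them and is no result.

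The cells were immortalized murine dermal fibroblasts (imMDF), either Lap2alpha +/+ (WT) or Lap2alpha -/- (KO). KO cells lack LAP2alpha, the nucleoplasmic isoform encoded by Tmpo that binds lamin A/C. Lists of called regions carry no reads over the deleted exon, and the loss of LAP2alpha was not checked here. Chromatin was cross-linked with formaldehyde, sheared for 12 or 30 cycles and precipitated with an antibody to lamin B1 (WT alone), to LAP2alpha (WT alone) or to lamin A/C (WT and KO), the latter with N18, raised against the N terminus, or 3A6, which recognizes the C-terminal Ig fold. Each combination was 1 library from an immortalized line, so no spread between replicates exists, no difference between sonications or genotypes was tested, and intervals cover counting error only. Both lamin B1 libraries came from the same flow cell lane. For lamin A/C, the WT and KO libraries made at 1 sonication also shared a lane, whereas the 12- and 30-cycle ones were on different flow cells, as were the LAP2alpha libraries, so that sonication and run cannot be told apart there. Reads inside SICER islands, short enriched regions called in the same libraries, numbered 3989494 to 13601739 per library. Islands were sparse on some chromosomes: in the lamin B1 30-cycle library they took under 1% of chromosomes 1, 2, 4, 5, 7, 9, 10, 12, 16 and 18.

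Lamin B1 is a farnesylated intermediate filament protein of the nuclear lamina, the meshwork that lines the inner nuclear membrane. Chromatin that touches it forms lamina-associated domains (LADs), broad blocks that are typically poor in genes, rich in A+T and transcriptionally silent. Lamin A/C takes part in the same meshwork but also exists in the nuclear interior, where LAP2alpha binds it. Compact chromatin resists shearing, and long fragments are lost when a library is size selected.

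Sequence from the lamin B1 islands with the most reads in total is shown for the 4 longest stretches that held a 30-cycle island, to give an impression of the DNA concerned. Each is the central 300 bases, on the plus strand of mm9, of the island with the most reads in that stretch, and capitals mark GAGAG or its reverse complement CTCTC. The X chromosome sequence at chrX:97714351-97714650 lay 2.89 kb from the nearest protein-coding gene, Igbp1, in an island of 105 kb with 3894 reads. The sequence at chrX:69007851-69008150 lay 53.1 kb from Vma21 in an island with 3375 reads. The sequence at chr14:112354851-112355150 lay 272 kb from Slitrk5 in an island with 1467 reads, and that at chr3:42243851-42244150 lay 681 kb from D3Ertd751e in an island with 2081 reads. None of the 4 overlapped a protein-coding gene.
Stretch of 15.4 Mb on X: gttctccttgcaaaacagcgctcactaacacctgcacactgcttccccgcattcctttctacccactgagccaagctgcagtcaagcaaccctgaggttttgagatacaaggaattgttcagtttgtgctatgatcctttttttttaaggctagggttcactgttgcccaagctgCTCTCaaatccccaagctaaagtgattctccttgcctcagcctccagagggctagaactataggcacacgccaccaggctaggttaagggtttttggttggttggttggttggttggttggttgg
Stretch of 9.09 Mb on X: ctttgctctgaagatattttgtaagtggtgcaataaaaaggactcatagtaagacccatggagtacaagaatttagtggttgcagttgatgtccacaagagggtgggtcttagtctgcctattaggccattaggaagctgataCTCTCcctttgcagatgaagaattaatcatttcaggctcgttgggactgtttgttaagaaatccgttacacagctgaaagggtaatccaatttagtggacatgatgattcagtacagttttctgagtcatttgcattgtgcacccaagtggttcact
Stretch of 7.85 Mb on 14: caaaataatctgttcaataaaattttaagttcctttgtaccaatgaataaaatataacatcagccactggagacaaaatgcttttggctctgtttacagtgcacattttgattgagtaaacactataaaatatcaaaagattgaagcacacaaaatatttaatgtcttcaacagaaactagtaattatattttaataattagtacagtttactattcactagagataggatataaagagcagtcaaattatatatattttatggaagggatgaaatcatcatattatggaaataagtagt
Stretch of 7.68 Mb on 3: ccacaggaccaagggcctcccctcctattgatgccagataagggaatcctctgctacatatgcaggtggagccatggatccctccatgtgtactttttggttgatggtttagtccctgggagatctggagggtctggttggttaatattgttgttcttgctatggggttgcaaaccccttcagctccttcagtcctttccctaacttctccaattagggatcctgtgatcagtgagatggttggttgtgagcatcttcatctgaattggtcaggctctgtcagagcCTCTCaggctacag
G+C content of the 4 sequences was 49.0%, 41.0%, 26.3% and 49.7% in this order, so the Slitrk5 neighbour stood far below the others. The motif occurred once in each of 3 sequences and in none of the bases from chromosome 14. Of all 300-base tiles, 48.4% held the motif in the stretches, 48.5% in lamin B1 domains of both sonications and 52.8% in the genome. The share in the stretches was thus close to that in the lamin B1 domains shared by both sonications.

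The stretches ranged from 110 kb to 15.4 Mb, with a median of 0.732 Mb and quartiles of 0.407 and 1.43 Mb. Of the 410, 162 were at least 1 Mb long and 14 at least 5 Mb. The 10 longest held 18.3% of the base pairs. Just inside the limit, the 3 shortest stretches each measured 110 kb, and just outside it the 3 longest pieces each measured 99 kb.

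The stretches fell into 3 classes by their position beside 12-cycle lamin B1 domains. A group of 164 stretches was made of whole 30-cycle domains with no 12-cycle base pair, and held 205 Mb. Another 183 stretches adjoined a 12-cycle domain at 1 end and held 167 Mb, and the last 63 filled the space between 12-cycle domains at both ends and held 147 Mb. Median lengths were 0.880 Mb for the stretches apart from any 12-cycle domain, 0.440 Mb for those beside 1 domain and 1.29 Mb for those between domains. Those set apart were mostly distant from the nearest 12-cycle lamin B1 domain, with a median distance of 3.99 Mb and a range of 0.209 to 65.0 Mb, and 14 of the 164 lay within 1 Mb of one. Of the 370 lamin B1 domains at 30 cycles, 183 were covered in part by 12-cycle domains and had a median EDD score of 23.8 and a median length of 2145 kb. The 164 with no 12-cycle base pair scored 8.06 at the median, with a median length of 880 kb, and the 23 lying wholly inside 12-cycle domains scored 10.1 and measured 957 kb. The score adds up over a domain and therefore rises with its length.

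**Figure D1:**
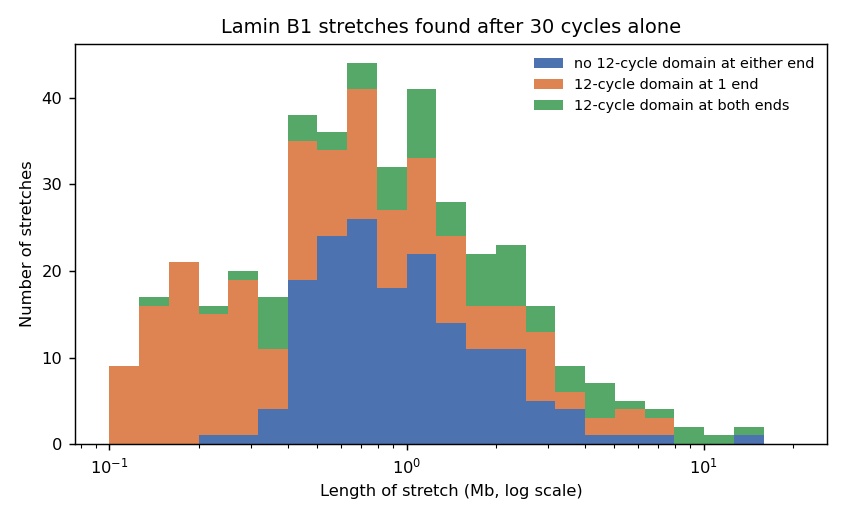
Number of stretches (vertical axis) by length in Mb on a log scale (horizontal axis), stacked by whether a 12-cycle lamin B1 domain adjoins neither end (164), 1 end (183) or both ends (63). All 3 classes reach beyond 5 Mb, while nearly all stretches under 0.2 Mb adjoin a domain at 1 end.

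Chromosomes differed in how much of their lamin B1 signal was called after 30 cycles alone. On chromosome 4, domains took 0.753% at 12 cycles and 25.1% at 30 cycles, and the 17 stretches there held 37.0 Mb. On chromosome 14 the shares were 2.41% and 28.7%, with 31.9 Mb in 17 stretches, and on chromosome 3 they were 4.68% and 30.8%, with 41.0 Mb in 25 stretches. Chromosomes 16 and X had the largest fraction of their length in stretches, 39.4% and 40.9%. The X chromosome held 66.3 Mb of them in 30 stretches, and its domains rose from 33.0% to 73.8% of the chromosome. In contrast, stretches took 7.95% of chromosome 11, 8.15% of chromosome 2 and 9.15% of chromosome 9. The 12-cycle share was lower than the 30-cycle share on each of the 20 chromosomes.

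Islands, called apart from the domains in the same lamin B1 libraries, are given as a description. A 30-cycle lamin B1 island was centred in 219 stretches (53.4%), and a 12-cycle one in 189 (46.1%), although 12-cycle domains were absent from the stretches by construction. Islands of the 12-cycle library took 14.9% of the stretch base pairs and those of the 30-cycle library 20.9%. The same values were 23.2% and 27% in lamin B1 domains of both sonications (269 stretches of at least 100 kb, 430.2 Mb), and 10.0% and 11.6% in the genome. Within islands in the stretches, reads per kb were nearly equal, 38.4 at 12 cycles and 38.5 at 30. On the 10 chromosomes with islands over at least 1% of their length, 175 of 184 stretches held a 30-cycle island and 168 held a 12-cycle one. On the other 10 chromosomes, 44 of 226 held a 30-cycle island. Leaving out stretches that hold a 12-cycle island leaves 221 stretches of 254.9 Mb.

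Coverage by lamin A/C and LAP2alpha was measured as the share of the stretches' base pairs inside each library's EDD domains, and as the number of stretches at least 50% inside them. The latter is given beside the percentage of 25548 genome windows of 100 kb that were at least 50% inside, as a background, and with an exact (Clopper-Pearson) 95% binomial interval over stretches. Because stretches are longer than the windows and lie together on chromosomes, the interval describes counting only. A count of stretches weighs short and long ones alike, so each library's share of the genome's base pairs is given too.

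The stretches were covered most by lamin A/C precipitated with 3A6 after 30 cycles. In WT, 3A6 domains at 30 cycles took 48.6% of the stretch base pairs, and 197 of 410 stretches (48.0%, interval 43.1 to 53.0%) were at least 50% inside, against 22.8% of windows. In KO the 30-cycle 3A6 domains took 26.8%, with 132 stretches (32.2%, interval 27.7 to 37.0%) against 19.6% of windows. Over the genome without gaps, the same libraries covered 22.8% and 19.5% of the base pairs, and outside all lamin B1 domains 1.77% and 8.94%. Lamin B1 domains of both sonications were covered more than the stretches, at 69.4% in WT and 48.8% in KO. Seen from the 3A6 library, 43.4% of the base pairs in its 30-cycle WT domains fell in the stretches.

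The N18 antibody recovered far less of the stretches at the same sonication. N18 domains at 30 cycles took 10.2% of the stretch base pairs in WT, with 85 stretches at least 50% inside (20.7%, interval 16.9 to 25%) against 9.35% of windows. In KO they took 7.45%, with 67 stretches (16.3%, interval 12.9 to 20.3%) against 18.5% of windows. By count of stretches, the interval of N18 in WT lay above its background, and that of N18 in KO included its own. In base pairs, N18 domains at 30 cycles took 9.33% of the genome without gaps in WT and 18.5% in KO. The share in the stretches was thus near that of the genome in WT and below it in KO. N18 domains at 30 cycles covered 5.10% of the genome outside lamin B1 domains in WT and 22.3% in KO.

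At 12 cycles the WT libraries left most stretches untouched. Lamin A/C domains took 4.39% of the stretch base pairs with N18 and 6.66% with 3A6, and LAP2alpha domains took 5.64%. In this order, 36 stretches (8.78%, interval 6.23 to 11.9%), 60 stretches (14.6%, interval 11.4 to 18.4%) and 48 stretches (11.7%, interval 8.76 to 15.2%) were at least 50% inside. The windows reached 15.8% for N18, 15.6% for 3A6 and 19.8% for LAP2alpha. By count, the intervals of N18 and LAP2alpha lay below their backgrounds and that of 3A6 included its own. In base pairs the libraries took the same 15.8%, 15.6% and 19.8% of the genome without gaps. Each of them, 3A6 included, thus took less of the stretches than of the genome. For LAP2alpha, 25.5% of the genome outside lamin B1 domains was covered, several times the share in the stretches. Coverage of the stretches was uneven between chromosomes. On chromosome 1, LAP2alpha, N18 and 3A6 took 27.6%, 27.2% and 26.0% of the stretch base pairs, and on chromosomes 3 and X each took 0.

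KO cells at 12 cycles covered more of the stretches than WT cells. In KO, N18 domains took 9.34% of the stretch base pairs and held 68 stretches (16.6%, interval 13.1 to 20.5%), against 16.5% of windows. The 3A6 domains of KO took 15.4% and held 114 stretches (27.8%, interval 23.5 to 32.4%), against 15.1% of windows. Of the base pairs of the genome without gaps, KO domains took 16.5% with N18 and 15.0% with 3A6. In base pairs the stretches were thus below the genome with N18 and near it with 3A6.

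LAP2alpha at 30 cycles gave 18.6% of the stretch base pairs and 109 stretches (26.6%, interval 22.4 to 31.1%), against 25.3% of windows. Over the genome without gaps its domains took 25.4% of the base pairs, more than in the stretches. This library had no domain on chromosomes 3, 8, 13, 19 and X, where 99 of the stretches lie. On the 15 other chromosomes it took 25.7% of the stretch base pairs. Its domains covered 63.7% of the stretch base pairs on chromosome 1 and 73.6% on chromosome 12, and none on chromosomes 15 and 17.

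**Figure D2:**
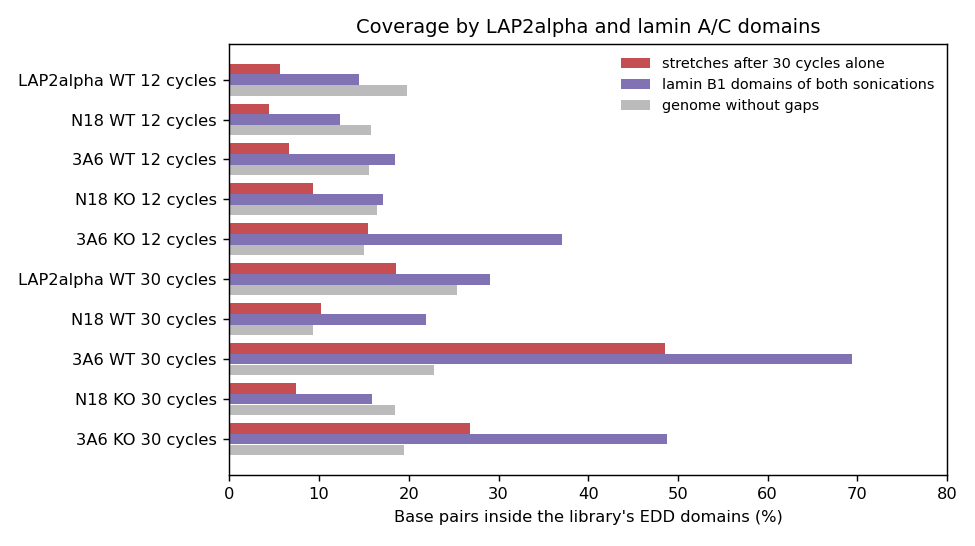
Percent of base pairs inside the EDD domains of 10 libraries (rows, for LAP2alpha and the lamin A/C antibodies), for the 410 stretches, for lamin B1 domains of both sonications and for the genome without gaps. The bar for 3A6 WT at 30 cycles reaches 48.6% in the stretches, and all 3 WT libraries at 12 cycles stay at or below 6.66% there.

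Stretches were taken wholly, in part or not at all by a library, and the balance differed between libraries. Of the 410, 265 contained some 3A6 domain at 30 cycles in WT and 89 lay wholly inside. For LAP2alpha at 12 cycles 69 contained some and 37 lay wholly inside. In 168 stretches, 3A6 in WT at 30 cycles held at least 50% while no 12-cycle WT library did. When the 30-cycle WT libraries were combined, 126 stretches (30.7%, 201 Mb) were held by 3A6 alone, 33 by LAP2alpha alone, 14 by N18 alone and 30 by all 3, and 143 (34.9%, 212 Mb) by none of them. At 12 cycles, 343 stretches (83.7%) were held by none of the WT libraries and 32 by all 3. Over all 10 libraries, 111 stretches (27.1%, 177 Mb) were at least 50% inside no library, 57 (42.3 Mb) had no base pair inside any, and 7 were at least 50% inside all 10.

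The stretches held by a 12-cycle WT library were shorter and more G+C-rich at the median. The 67 stretches held by at least 1 of these libraries had a median length of 0.473 Mb and a median G+C content of 43.1%, and held 5.17 protein-coding genes per Mb. The other 343 had a median length of 0.891 Mb, a median G+C content of 39.0% and 3.93 genes per Mb. Being held depends on a share of a stretch's own length, so a longer stretch needs more covered base pairs. How far this limit shaped the length contrast was not tested. Across the 410 stretches, coverage by LAP2alpha at 12 cycles went with G+C content (Spearman's rho 0.54). Its rho was weak with length (-0.17) and near 0 with genes per Mb (0.0096). For coverage by 3A6 in WT at 30 cycles, rho was -0.16 with G+C content, 0.084 with length and -0.12 with genes per Mb. These are descriptions over neighbouring stretches that share libraries and base composition. Of the 48 stretches held by LAP2alpha at 12 cycles, 3 were at least 1 Mb long. 3A6 in WT at 30 cycles held 81 of the 162 stretches of at least 1 Mb and 116 of the 248 shorter ones.

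Coverage also varied with position relative to the 12-cycle lamin B1 domains. 3A6 domains in WT at 30 cycles took 37.4% of the base pairs between 12-cycle domains, 52.7% of those beside a domain and 53.3% of those apart. For N18 in WT at 30 cycles the shares were 1.73%, 11.9% and 14.9% in the same order, and for LAP2alpha at 30 cycles 18.2%, 15.6% and 21.2%. For both lamin A/C antibodies in WT at 30 cycles, the stretches between 12-cycle domains were the least covered. Of the 10 longest stretches, 5 were such spaces, on chromosomes X, 12 and 16.

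Between genotypes, the change at 12 cycles and the change at 30 cycles had opposite signs. With 3A6 at 12 cycles, 24.2 Mb of the stretches lay in domains of both genotypes, 10.4 Mb in WT alone and 55.8 Mb in KO alone. With 3A6 at 30 cycles, 92.9 Mb lay in both, 160 Mb in WT alone and 46.1 Mb in KO alone. With N18 the bp of WT alone and KO alone were 6.09 and 31.8 Mb at 12 cycles, and 25.1 and 10.8 Mb at 30 cycles. The ratio of KO to WT base pairs in the stretches was 2.31 for 3A6 at 12 cycles and 0.551 at 30 cycles, while over the whole genome it was 0.963 and 0.859. For N18 the ratio in the stretches was 2.13 at 12 cycles and 0.729 at 30 cycles, and over the whole genome 1.04 and 1.98. Lamin B1 domains of both sonications showed the same opposite signs. Their 3A6 share went from 18.5% in WT to 37.1% in KO at 12 cycles, and from 69.4% to 48.8% at 30 cycles. Their N18 share went from 12.3% to 17.1% at 12 cycles and from 21.9% to 15.9% at 30 cycles. The 3A6 share of the stretches at 30 cycles was lower in KO on 14 chromosomes and higher on 6. On chromosome 16 it went from 70.5% in WT to 0 in KO and on chromosome 15 from 81.2% to 0, whereas on chromosome 10 it went from 24.5% to 51.9%. On chromosome 14 the share stayed high in both genotypes, at 95.9% and 59.9%. Whether the difference came with the genotype, the line or the library was not tested.

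Among single regions, the longest stretch spanned 15.4 Mb of the X chromosome, chrX:87989001-103389000, between 12-cycle lamin B1 domains. It held 113 protein-coding genes, among them Eda, which encodes ectodysplasin, and Mageb18, annotated at 481 kb. 3A6 in WT at 30 cycles covered 25.9% of it, and no library reached 50%, so that it was also the longest stretch held by none. It contained 144 lamin B1 islands at 12 cycles and 179 at 30. The next, chr4:66583001-80443000 with 13.9 Mb, was the longest set apart from any 12-cycle domain. It was covered to 99.3% by 3A6 in WT and 71.1% in KO at 30 cycles, and to 0 by each WT library at 12 cycles, and it held 22 genes including Ptprd, a receptor tyrosine phosphatase of synaptic adhesion, and Cdk5rap2, a centrosomal protein.

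On chromosome 16, chr16:62590001-74668000 (12.1 Mb, 19 genes) held Cadm2, a synaptic cell adhesion molecule, and Robo2, an axon guidance receptor. It was covered to 63.7% by 3A6 in WT at 30 cycles and to 0 in KO, the longest stretch with this pattern. The stretch chr16:75152001-81741000 (6.59 Mb, 17 genes), which holds the neural adhesion gene Ncam2, gave 59.4% in WT and 0 in KO. Every stretch of chromosome 16 had 0 in 3A6 domains of KO at 30 cycles, so this value was not particular to these regions. The longest stretch with the reverse pattern was chr10:44902001-52151000 (7.25 Mb, 20 genes), with 0 in WT and 92.6% in KO, and it held Grik2, a kainate receptor subunit, and Ascc3. The 3A6 shares given by chromosome are shares of the stretches and include these same regions. A common direction is therefore no separate result.

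LAP2alpha at 30 cycles covered 100% of chr12:39501001-48631000 (9.13 Mb, 15 genes), where Immp2l, a mitochondrial inner membrane peptidase subunit, and Dock4 lie, and no lamin A/C library exceeded 6.02% there. The stretch chrX:64053001-73139000 (9.09 Mb, 107 genes) held Aff2 and Gabra3, a GABA-A receptor subunit, and 3A6 in WT at 30 cycles covered 30.6% of it. Long stretches of chromosome 14 were taken almost whole by 3A6 in WT at 30 cycles. Of these, chr14:108141001-115995000 (7.85 Mb, 6 genes) holds the neuronal transmembrane genes Slitrk5 and Slitrk6. It was covered to 100% in WT and 97.2% in KO by 3A6 at 30 cycles. The stretch chr14:80322001-86449000 (6.13 Mb, Pcdh17 and Olfm4) was covered to 98.2% in WT but to 36.8% in KO. The stretch chr3:41591001-49269000 (7.68 Mb) held 3 genes, including Pcdh10 and Pabpc4l, and was covered to 21.5% in WT and 0 in KO.

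The longest stretch held by LAP2alpha and by N18 in WT at 12 cycles was chr1:120186001-122254000 (2.07 Mb). At 12 cycles in WT, 100% of it was covered by LAP2alpha, by N18 and by 3A6, and 3A6 at 30 cycles covered none in either genotype. Its G+C content was 46.0%, against 36.8 to 40.6% for the 10 longest stretches. It held 19 genes, 9.19 per Mb, including Clasp1, a microtubule plus-end protein, and Gli2, a transcription factor of Hedgehog signalling.

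**Figure D3:**
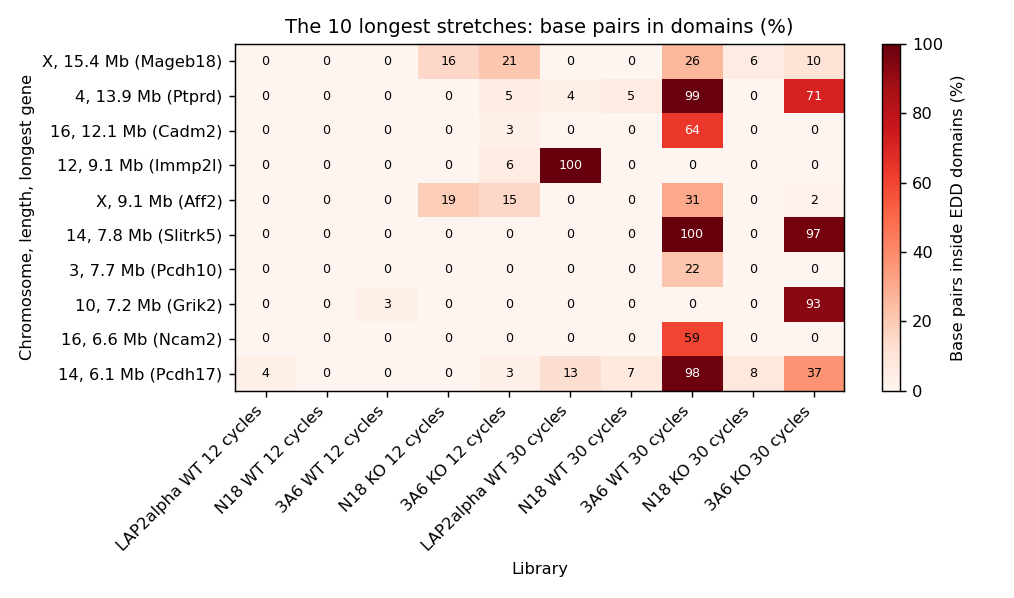
Percent of base pairs inside the EDD domains of 10 libraries (columns) for the 10 longest stretches (rows, named by chromosome, length and longest gene). Dark cells gather in the column of 3A6 WT at 30 cycles, while the columns of the WT libraries at 12 cycles stay at or below 3.77%.

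The stretches were poor in genes. Of 22208 annotated protein-coding genes, 2089 (9.41%) had at least 50% of their length inside, and 1594 (7.18%) were inside lamin B1 domains of both sonications. Density in the stretches was 4.03 genes per Mb without gaps, against 3.71 in lamin B1 domains of both sonications, 11.6 outside lamin B1 domains and 15.8 in LAP2alpha domains at 12 cycles. G+C content was 38.9% in the stretches and 38.9% in domains of both sonications, against 41.8% in the genome and 46.6% in LAP2alpha domains at 12 cycles. Over single stretches G+C content ran from 35.8% to 47.9% with a median of 39.3%. GAGAG on either strand occurred 3.84 times per kb in the stretches and 3.86 times in domains of both sonications, against 4.24 in the genome. A stretch held 2.00 genes at the median, and 99 stretches (24.1%) held none. The X chromosome contributed 406 of the genes, 6.12 per Mb, and 43.8% of its genes were inside compared with 7.91% of autosomal genes.

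Genes in the stretches were covered by the libraries much as the stretches were. 3A6 in WT at 30 cycles covered at least 50% of the length of 824 of the 2089 genes (39.4%, against 9.40% of all genes), and LAP2alpha at 12 cycles that of 176 (8.43%, against 35.9% of all genes). Median gene length was 11.9 kb in the stretches, 2.77 kb in domains of both sonications and 15.5 kb for all genes. Of 200 genes longer than 500 kb, 52 (26.0%) were inside the stretches, against 9.41% of all genes, and 53 (26.5%) in domains of both sonications, against 7.18% of all genes. In base pairs the stretches were 20.3% of the genome without gaps, and the share of long genes was nearer to that. Domains of both sonications held 430 Mb of the 2556 Mb without gaps.

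Among 30 gene lists, chemosensory receptors gave the most genes in the stretches, but olfactory receptors were more numerous in domains of both sonications. Of 1087 olfactory receptor genes, which encode odorant receptors of the nose, 277 (25.5%, against 9.41% of all genes) were inside, and 568 (52.3%, against 7.18%) were in domains of both sonications. They made up 13.3% of the genes in the stretches and 35.6% of those in domains of both sonications. The 277 lay in 18 stretches, and chr7:109791001-112519000 (2.73 Mb), the stretch with the most genes, held 114 of them among 144 genes. Its longest genes were Trim34a and Trim30a, and 3A6 at 30 cycles covered 69.0% of it in WT and 17.7% in KO. Over the family, 227 of the 277 were in 3A6 domains of WT at 30 cycles, 107 in those of KO, 79 in LAP2alpha domains at 30 cycles and 18 in those at 12 cycles. Olfr151, Olfr78 and Olfr631, the longest members inside, were each covered to 100% by 3A6 in WT at 30 cycles.

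Vomeronasal type 1 receptors are pheromone receptors of the vomeronasal organ. They had the larger count in the stretches, with 79 of 205 (38.5%) there and 40 (19.5%) in domains of both sonications. Over all genes the shares were 9.41% and 7.18%, which is the background for the other receptor lists too. The 79 lay in 8 stretches, so the count rests on a few gene clusters. The stretch with the most of them, chr6:56903001-58025000, held 23 among 28 genes. Vmn1r173 on chromosome 7 was covered to 100% by 3A6 in both genotypes at 30 cycles, and Vmn1r32 on chromosome 6 by no library. Vomeronasal type 2 receptors divided almost evenly, 41 of 117 (35.0%) and 44 (37.6%), and so did bitter taste receptors, 14 of 35 (40.0%) and 15 (42.9%). Of the 14 bitter taste receptors, 10 lay in chr6:132759001-133474000, and 1 of the 14 was in a 3A6 domain of WT at 30 cycles. Many receptors in such clusters are near-identical copies, and reads of mapping quality under 20 had been removed, so how well domains could be called there is uncertain.

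Cytochrome P450 genes, which encode haem enzymes that oxidize steroids, fatty acids and foreign compounds, lay in the stretches more often than in domains of both sonications. Of 96, 33 (34.4%, against 9.41% of all genes) were inside. In domains of both sonications there were 8 (8.33%, near the 7.18% of all genes). The 33 lay in 5 stretches. The Cyp2c cluster at chr19:39061001-40293000 accounted for 14, which were all 14 genes of that stretch. Cyp2c29 and Cyp2c38 were covered by no library, whereas Cyp19a1 on chromosome 9, which encodes aromatase, was covered to 100% by LAP2alpha at both sonications and by 3A6 in WT at 12 cycles and to 0 by 3A6 in WT at 30 cycles. Numbered zinc finger genes were near the background, 38 of 340 (11.2%), with 15 (4.41%) in domains of both sonications. Zfp536, a zinc finger gene on chromosome 7, had 70.8% of its length in a stretch and was covered to 100% by LAP2alpha at both sonications.

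Neuronal adhesion and receptor genes formed another group, with members split between the stretches and the domains of both sonications. Of all genes, 9.41% lay in the stretches and 7.18% in domains of both sonications. Among non-clustered protocadherins, adhesion proteins of the cadherin superfamily, 5 of 12 (41.7%) were in stretches and 0 in domains of both sonications; Pcdh15 was covered to 57.5% by 3A6 in WT at 30 cycles, Pcdh11x to 97.4% and Pcdh7 to 0. Leucine-rich synaptic adhesion genes gave 7 of 21 (33.3%) in stretches and 5 in domains of both sonications, and Lrrc4c and Lrrtm1 were covered to 99.7% and 100% by 3A6 in WT at 30 cycles while Flrt2 was covered by no library. Neurexins, neuroligins, teneurins and latrophilins gave 4 of 13 (30.8%) and 3, with Odz1 and Nlgn1 at 100% and Lphn3 at 0 for the same library. Contactins and contactin-associated proteins went the other way, with 2 of 13 (15.4%) in stretches and 9 (69.2%) in domains of both sonications. Cntnap2, at 2241 kb among the longest genes, was split between them with 66.5% of its length in a stretch and 33.5% in domains of both sonications.

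Glutamate receptors, the excitatory neurotransmitter receptors, had 6 of 26 (23.1%) in stretches and 5 in domains of both sonications. For these and the following lists, the shares of all genes were 9.41% and 7.18%. Grm5 was covered to 58.4% by 3A6 in WT at 30 cycles, and Grik2 to 0 in WT and 100% in KO. GABA-A receptors, the inhibitory chloride channels, had 4 of 19 (21.1%) and 11 (57.9%), and Gabra3 was covered to 100% by 3A6 in WT at 30 cycles, Gabrr3 to 100% and Gabre to 0. Cadherins had 4 of 23 (17.4%) and 9 (39.1%), including Cdh18 and Cdh12 in 1 stretch of chromosome 15 and Cdh2 on chromosome 18. Potassium channels had 6 of 92 (6.52%), near the background, including Kcnip4, which had 52.5% of its length in a stretch, Kcnq5 and Kcnt2. Serpins, which are protease inhibitors, had 3 of 60 (5.00%) in stretches and 11 (18.3%) in domains of both sonications, and all 3, Serpini1, Serpini2 and Serpina7, were covered to 100% by 3A6 in WT at 30 cycles.

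Some lists had no member in the stretches, where 9.41% of all genes lay. Of 41 beta-defensin genes 0 were in stretches and 19 in domains of both sonications, and of 46 keratin-associated protein genes 0 and 19. Of 50 keratins, 39 Hox genes, 27 prolactin family genes, 16 type I interferon genes, 55 Hist1 histone genes, 39 proteasome subunits and 20 fibroblast marker genes, none were in stretches or in domains of both sonications. Of 43 collagens 0 were in stretches and 2 in domains of both sonications. For the shorter of these lists a share like that of all genes would amount to only a few members, so nothing is read from a count of 0.

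Small lists of genes for ribosomes, respiration and transcription held few members in the stretches. Of 83 ribosomal protein genes, 4 (4.82%) were inside, including Rps4x and Rpl10 on the X chromosome and Rpl7 on chromosome 1. Of 73 mitochondrial ribosomal protein genes 4 (5.48%) were inside, and Mrps9 and Mrpl3 were covered to 100% by each of the 3 WT libraries at 12 cycles and to 0 by 3A6 in WT at 30 cycles, while Mrpl50 was covered by no library. Respiratory complex I subunits had 2 of 41 (4.88%), Ndufa5 and Ndufb11. Among Sox, Fox, Tbx and Irx transcription factors, 3 of 80 (3.75%) were inside: Foxp2, covered to 48.6% by 3A6 in WT at 30 cycles, Foxo4 and Foxa1. At these list sizes such counts differ from the 9.41% of all genes by a few genes only, and nothing is read from them.

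Of 19 genes for proteins of the nuclear envelope and its partners, 1 (5.26%, against 9.41% of all genes) was in a stretch. This was Emd, at chrX:71500026-71506887, which encodes emerin, a LEM-domain protein of the inner nuclear membrane. It lay in the 9.09 Mb X stretch near Rpl10, and no LAP2alpha or lamin A/C domain covered it. The other 18, none of them in lamin B1 domains of both sonications, were Lmna, Lmnb1, Lmnb2, Tmpo, Lbr, Banf1, Lemd1, Lemd2, Lemd3, Ankle1, Ankle2, Sun1, Sun2, Syne1, Syne2, Tor1aip1, Cbx5 and Rb1. LAP2alpha at 12 cycles covered 100% of Lmnb2, Lbr, Lemd1, Lemd2, Ankle1, Ankle2, Sun1, Sun2 and Tor1aip1. Of all genes, 35.9% were in LAP2alpha domains at 12 cycles, and a difference from that share was not tested. Lmna, Lmnb1, Tmpo, Syne1, Cbx5 and Rb1 were covered by none of the 10 libraries.

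**Figure D4:**
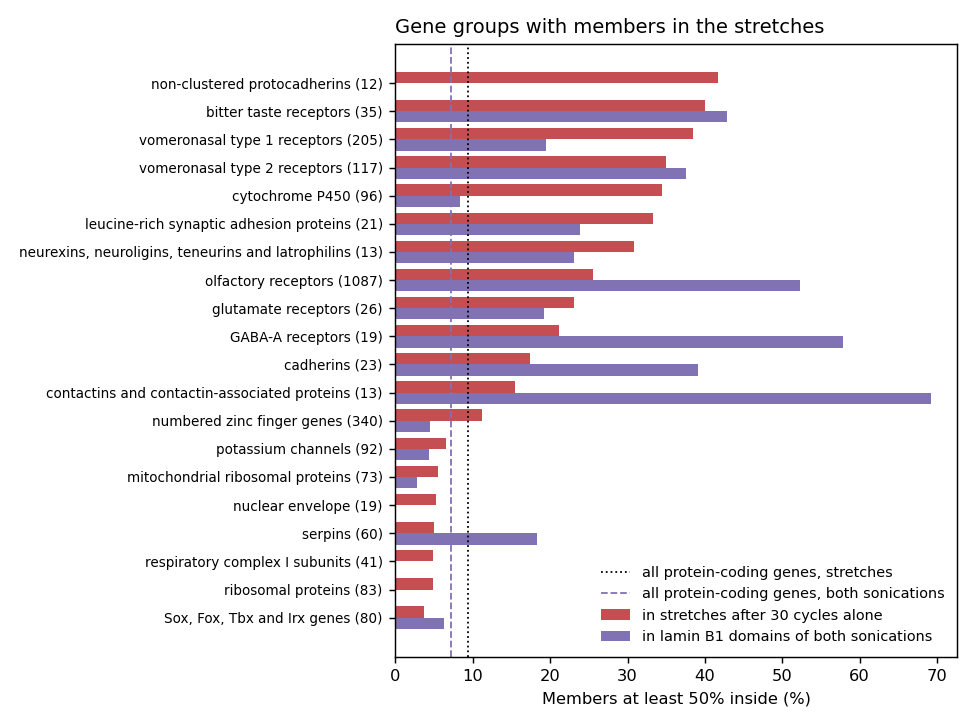
Percent of the annotated members (in brackets) at least 50% inside the stretches or inside lamin B1 domains of both sonications, for the gene groups with at least 1 member in the stretches; the dotted line marks the 9.41% of all protein-coding genes in the stretches and the dashed line the 7.18% in domains of both sonications. Cytochrome P450 genes and type 1 vomeronasal receptors are higher in the stretches, olfactory and GABA-A receptors in domains of both sonications.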

How the data were processed

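ChIP-seq region lists of 12 libraries were analysed; 4 inputs and 8 histone-mark samples are not analysed here. According to the submitters' processing notes and the methods, the authors used cutadapt for trimming and Bowtie2 2.1.0 for alignment (mm9), discarded duplicates and reads of mapping quality under 20, and with Picard brought ChIP reads down to the input number. Per library and against its input, they called islands with SICER 1.1 (window 1000 bp, gap 3000 bp, FDR 0.01), whose deposited values are counts of ChIP reads, and domains with EDD (bin 11 kb, gap penalty 5, FDR 0.1), whose deposited values are a score. Depth beyond island reads was not analysed, and how depth limits the calls is not known.

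Overlaps were computed in Python 3.11.15 with SciPy 1.17.1 on exact coordinates, counted from 1. A stretch counted as covered, and a gene as inside, at 50% of its length. Genes were 22208 protein-coding symbols of the GENCODE annotation of mm9, on 20 chromosomes, and sequence came from the same assembly. Windows over 50% gap were left out. The stretches and the 30 gene lists were chosen with earlier results of these data known. The cytochrome P450 list was extended after its counts were seen, by symbols such as Cyp4a12a and Cyp51 that its first pattern had missed. Described regions were the 10 longest stretches, the longest of each position class and of each coverage pattern; described genes were the 2 longest in each, up to 3 of each list and each nuclear envelope gene. The stretch with most members of a list was looked up after the values were seen. Overlap and interval code was tested on simulated data. Alternatives are given in the closing section. 1 gene that the rule for described genes selects is not reported here.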

Additional observations from a re-analysis of the deposited data

Results flagged for a closer look

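The change from WT to KO had opposite signs at the 2 sonications for both lamin A/C antibodies. The share of stretch base pairs in domains was 4.95 percentage points higher in KO with N18 at 12 cycles, and at 30 cycles it differed by -2.76. With 3A6 it was 8.73 percentage points higher in KO at 12 cycles and differed by -21.8 at 30 cycles. The signs were the same in lamin B1 domains of both sonications, so the pattern was not particular to the stretches. Each value comes from 1 library per genotype, so the difference between sonications was not tested. The 12- and 30-cycle lamin A/C libraries were run on different flow cells, and sonication and run cannot be told apart.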

How the results depend on the processing

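Every result rests on the authors' calls, and the depth behind a call that was not made is unknown. No paired analysis was possible because each group had 1 library. Of 87 values recomputed under alternatives, 48 stayed within 1.5 times the count, inside the counting interval or within the spread of the stretches, and none was a tested result. A minimum length of 500 kb gave 272 stretches, lamin B1 domains scoring above their median gave 258, and leaving out stretches with a 12-cycle island gave 221 stretches of 254.9 Mb. Genes per Mb, 4.02 with gaps included, came to 3.71 on autosomes alone and 3.80 for the higher-scoring lamin B1 domains. The other moved values are shares of stretches at least 50% covered. With the 500 kb minimum these were 7.72% (LAP2alpha, 12 cycles), 10.3% (3A6 WT, 12 cycles), 18% (3A6 KO, 12 cycles), 16.5% (N18 WT, 30 cycles), 11% (N18 KO, 30 cycles) and 27.6% (3A6 KO, 30 cycles). With the higher-scoring lamin B1 domains they were 7.75% (LAP2alpha), 10.5% (3A6 WT), 11.2% (N18 KO) and 23.3% (3A6 KO) at 12 cycles, and 20.2% (LAP2alpha), 14.0% (N18 WT) and 10.5% (N18 KO) at 30 cycles. With the SICER islands of the covering library in place of its domains, all 10 shares were lower: 1.22% (LAP2alpha), 0.732% (N18 WT), 2.68% (3A6 WT), 3.17% (N18 KO) and 6.83% (3A6 KO) at 12 cycles, and 1.46% (LAP2alpha), 8.05% (N18 WT), 10.7% (3A6 WT), 4.88% (N18 KO) and 6.83% (3A6 KO) at 30 cycles. With the higher-scoring domains of the covering library they were 21.7% (3A6 KO, 12 cycles) and, at 30 cycles, 22.0% (LAP2alpha), 13.9% (N18 WT), 31.0% (3A6 WT), 12.4% (N18 KO) and 24.1% (3A6 KO). At 80% in place of 50% coverage they were 22.7% (3A6 KO, 12 cycles), 15.6% (N18 WT), 35.1% (3A6 WT) and 24.4% (3A6 KO), the last 3 at 30 cycles. The 80% limit and the higher-scoring domains of the covering library can only lower a share, by construction. Islands are called apart from the domains, and for them and the other settings the cause was not tested. 3A6 in WT at 30 cycles gave the highest share in each of these settings.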
